A study of Mus musculus with 56 samples.

Results

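The SLC25 family of mitochondrial carriers was followed across 55 mouse livers. Its members were taken by symbol, as all protein-coding genes named Slc25a and a number, which gave 47 of the 21542 protein-coding genes in the files. Values are estimated RNA-seq counts, summed over the transcripts of each gene. The mice were males of the GCKR-P446L-EMI-B6N line, in which every cell carries proline or leucine at residue 446 of GKRP, the product of Gckr. GKRP is the regulatory protein that holds glucokinase, the first enzyme of hepatic glucose metabolism, in the hepatocyte nucleus. The genotypes were Gckr-446P (PP), Gckr-446P/L (PL) and Gckr-446L (LL). All mice, controls included, were kept for 20 weeks on HFHSD, a diet rich in fat and sugar. Fat gave 45% of the energy of the food pellets, and the drinking water held glucose at 10% and fructose at 5%. A subgroup of each genotype also had 3 mg/kg of a glucokinase activator (GKA) in that diet. Without GKA there were 9 PP, 8 PL and 10 LL livers, and with GKA there were 10 PP, 8 PL and 10 LL livers. PP mouse 7, left out by the authors, was left out here, so that 55 of 56 mice remained.

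Mitochondrial carriers are small proteins of the inner membrane, built from repeats that each cross the membrane as a pair of helices, and most exchange one small solute for another. They pass ADP, ATP and phosphate for oxidative phosphorylation, and citrate, malate and glutamate between cytosol and matrix. In hepatocytes they also link the matrix and cytosolic steps of gluconeogenesis, lipogenesis, fatty acid oxidation and the urea cycle. A few members lie in the outer membrane or in peroxisomes, and for some the substrate is not settled.

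The libraries held between 5189852 and 8093368 reads, with a median of 6559023, and the 47 carriers took between 0.197% and 0.35% of the reads of a mouse. Hepatocyte markers summed to between 74603 and 129634 counts per mega reads (CPM) in all livers, with none at 0. Adipoq and Lep of adipocytes, Ckm and Mb of muscle and Prss2, Cpa1, Pnlip and Ctrb1 of pancreas had no reads. Other genes of these lists did have reads. The adipocyte list summed to group medians of 3.79 to 7.24 CPM and the pancreas list to 18.3 to 32.4 CPM. The muscle list reached at most 0.233 CPM in a liver. Blood markers were highest in LL mouse 37, at 1655 CPM, PL mouse 35 with GKA, at 1197 CPM, and LL mouse 53 with GKA, at 2959 CPM, against group medians of 443 to 559 CPM. Since the genotypes differ by a residue, the level of Gckr does not check the labels. Nothing in the labels says whether mice shared a litter, batch or time of day. In bulk liver, fewer cells of a type and less RNA per cell cannot be told apart.

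The promoters of 3 members are given because the results turn on them. Slc25a47 was the carrier that differed between genotypes, and Slc25a10 and Slc25a39 were those that followed it most closely from liver to liver. Each is the 250 bases before the annotated start in RefSeq (build GRCm38.p6), written in the direction of the gene. That of Slc25a47 lies at chr12:108850879-108851128 on the plus strand. Those of Slc25a10 and Slc25a39 lie at chr11:120491587-120491836 on the plus strand and at chr11:102407518-102407767 on the minus strand. Capitals mark the motif found.
Slc25a47: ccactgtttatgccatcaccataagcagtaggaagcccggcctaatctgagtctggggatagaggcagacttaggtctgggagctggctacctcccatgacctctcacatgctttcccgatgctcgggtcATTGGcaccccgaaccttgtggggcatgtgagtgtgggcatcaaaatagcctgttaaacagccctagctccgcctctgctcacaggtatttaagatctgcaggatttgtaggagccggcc
Slc25a10: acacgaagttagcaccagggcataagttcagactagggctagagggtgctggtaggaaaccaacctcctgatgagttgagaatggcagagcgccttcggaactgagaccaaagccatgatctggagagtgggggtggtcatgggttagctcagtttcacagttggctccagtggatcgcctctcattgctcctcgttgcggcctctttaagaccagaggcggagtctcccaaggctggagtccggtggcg
Slc25a39: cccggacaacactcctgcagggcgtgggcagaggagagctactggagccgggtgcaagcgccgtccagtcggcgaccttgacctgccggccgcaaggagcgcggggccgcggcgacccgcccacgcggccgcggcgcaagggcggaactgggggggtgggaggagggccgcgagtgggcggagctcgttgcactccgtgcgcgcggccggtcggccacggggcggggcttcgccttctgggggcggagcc

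These windows were searched on both strands for 6 motifs, and no printed window held more than 1 match. The promoter of Slc25a47 held a CCAAT box, read as ATTGG on this strand, with its first base 120 bases before the start. It held no E-box (CACGTG), D-box (TTATGNAA), direct repeat (AGGTCA repeated after 1 free base), TATA box (TATAAA) or NRF1 motif (GCGC followed, after 1 free base, by TGCGC). The windows of Slc25a10 and Slc25a39 held none of the 6. RefSeq promoters were found for 36 of the 47 carriers, 46 windows in all. An E-box was in 8 of these windows (17.4%) against 6.02% of all 32851 promoters, and belonged to 7 carriers, among them Slc25a1, Slc25a15 and Slc25a33. CCAAT was in 21 windows (45.7%) against 33.8% of all promoters, and TATAAA in 2 (4.35%) against 12.4%. A D-box was in 1 window against 3.07% of all promoters, the NRF1 motif in 2 (4.35%) against 3.74%, and the direct repeat in 0 against 0.0335%. A match of letters is a description of the window and says nothing of what binds there.

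Slc25a47, a carrier found mainly in liver whose substrate is debated, had the highest level of the family. Levels are CPM per kb of the transcript of the gene with the most reads, given as the median over 55 livers. Slc25a47 stood at 339 CPM per kb, with a range of 117 to 583. Slc25a5, the adenine nucleotide translocase that exchanges ADP for ATP, followed at 235 (161 to 301). The next was Slc25a39, which is needed for glutathione import, at 139 (108 to 180). By CPM per kb, Slc25a47 was above Slc25a5 in 51 of 55 mice, and Slc25a5 was above Slc25a39 in 55 of 55. By median TPM the order of the latter pair was reversed, with Slc25a39 at rank 2 and Slc25a5 at rank 3, so it depends on the measure. Slc25a47 kept the first place by TPM, with protein-coding transcripts only, with PP mouse 7 included and by CPM without regard to length. It took 20.0% of all carrier reads.

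Below these stood carriers of phosphate and of carboxylates. The phosphate carrier Slc25a3 was at 92.0 CPM per kb (74.7 to 112), the citrate carrier Slc25a1, which exports citrate for lipogenesis, at 76.8 (57.1 to 113), and the dicarboxylate carrier Slc25a10 at 70.5 (34.2 to 119). Slc25a3 was above Slc25a1 in 51 of 55 mice, while Slc25a1 was above Slc25a10 in 35, so that the order of the last pair was not settled. Slc25a23, a calcium-regulated carrier of ATP-Mg and phosphate, was at 54.7 CPM per kb (40.9 to 72.1). The ornithine carrier Slc25a15, which serves the urea cycle, was at 49.5 (35.4 to 69.8). Slc25a25, a second ATP-Mg and phosphate carrier, was at 48.7 (21.8 to 115), and Slc25a22, a glutamate carrier, at 41.3 (30.2 to 62.5). Slc25a15 was above Slc25a25 in 25 of 55 mice, fewer than those with the reverse order. Over the whole order, the ranges of all 46 neighbouring pairs overlapped, and 4 pairs had the same order in all 55 mice. These levels use the length of 1 transcript per gene, which held 40.0% of the reads of Slc25a22 and 29.7% of those of Slc25a3. By TPM Slc25a22 stood at rank 5, with a median of 105 against 98.6 for Slc25a1. The order below the first place thus depends on the measure.

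**Figure D1:**
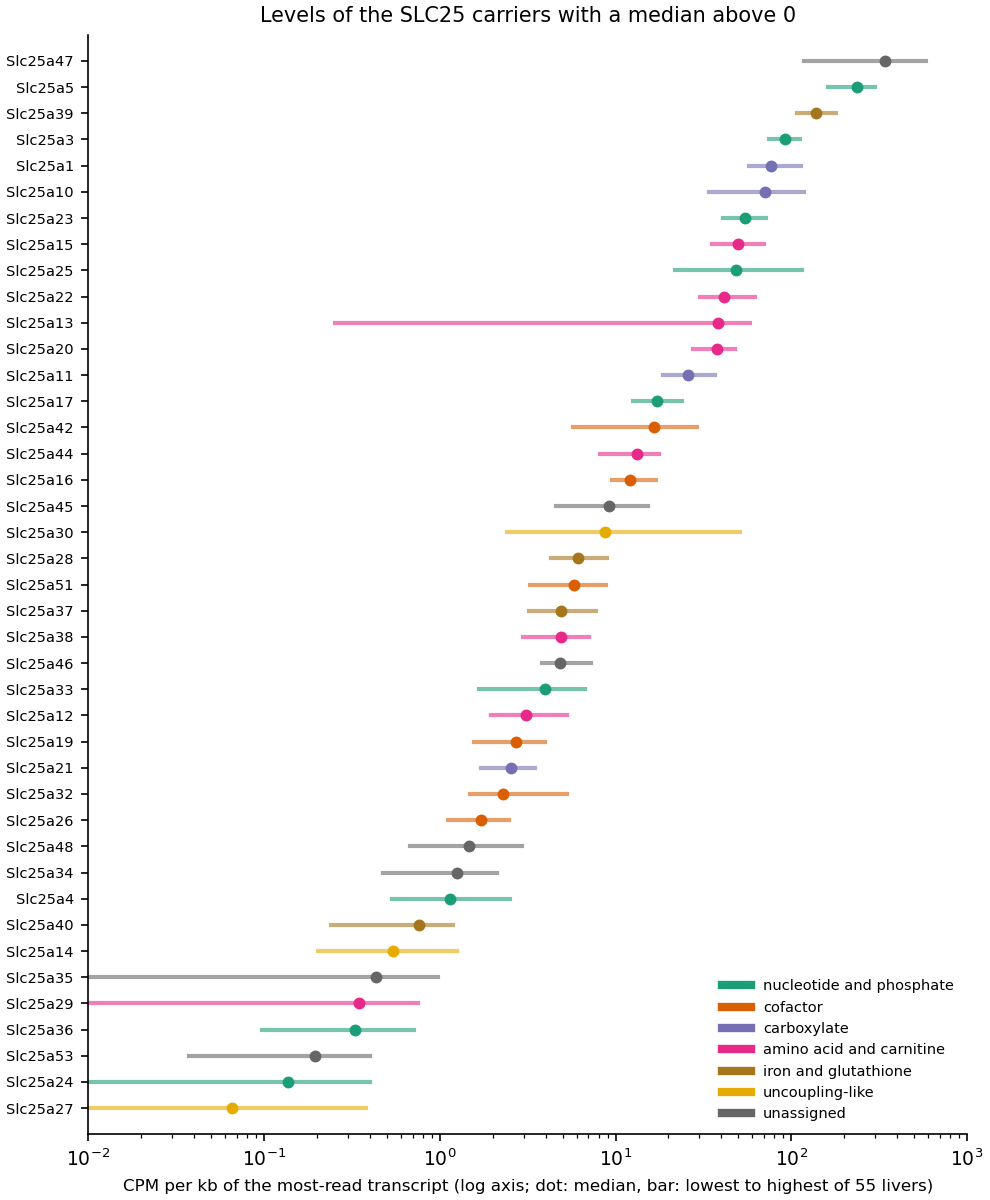
Level of each carrier with a median above 0 (41 of 47), in CPM per kb of its most-read transcript, on a log axis. Dots are medians over 55 livers, bars run from the lowest to the highest liver, and colours give the kind of solute. Slc25a47 stands first at 339 CPM per kb. The bars of Slc25a24, Slc25a27, Slc25a29 and Slc25a35 are cut at the left edge because their lowest liver had no reads, and the long bar of Slc25a13 comes from 4 livers with between 4 and 76 reads matched to it.

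The members also differed in how much they varied. Within groups, the coefficient of variation of CPM was 9.9% for Slc25a3 and 21.0% for Slc25a47. It was 23.0% for Slc25a10, 43.5% for Slc25a25 and 81.1% for Slc25a30, a carrier close to the uncoupling proteins whose level ran from 2.42 to 51.3 CPM per kb. Slc25a30 was picked out here after its values were seen. Related members stood far apart in some pairs and close in others. Slc25a5 stood at 235 CPM per kb and the muscle and heart form Slc25a4 at 1.14. Slc25a13 (citrin), the aspartate-glutamate carrier of liver, stood at 38.2 and its relative Slc25a12 at 3.11. The ATP-Mg and phosphate carriers Slc25a23 and Slc25a25 were close, at 54.7 and 48.7, as were the iron carriers Slc25a28 and Slc25a37, at 6.11 and 4.92.

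Of the 47 carriers, 35 had enough reads to be tested. The other 12 were Slc25a2, Slc25a14, Slc25a18, Slc25a24, Slc25a27, Slc25a29, Slc25a31, Slc25a35, Slc25a41, Slc25a43, Slc25a53 and Slc25a54, with medians of at most 6 reads a mouse. Slc25a36 passed the filter in 4 of the 12 comparisons. Slc25a41 and Slc25a54 had no reads in any liver, Slc25a2 and Slc25a31 had reads in 7 livers each, Slc25a18 in 12 and Slc25a43 in 13. Slc25a41 and Slc25a54 were thus not detectable at this depth, and the others were too low to be tested.

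Slc25a13 needs a caution. In LL mice 43 and 45 and, with GKA, LL mice 51 and 52 it had 6, 76, 4 and 7 reads, against 374 to 1298 in the other 51 livers. In the same 4 livers a transcript of 3067 bases had 833, 743, 530 and 553 reads. It has no entry in the annotation used to name genes. In the other 51 livers its median was 0 reads and its highest 381, so its reads were not confined to the 4. The sum of both ran from 535 to 839 reads in the 4 livers and from 484 to 1298 in the others. Slc25a13 was the only carrier with a missing transcript number in that annotation, so its counts may be incomplete. It stayed among the carriers tested, and counts over carriers are given with and without it where they differ. These livers were singled out after their values were seen. The transcript was picked from 1655 without an entry, as the one highest in these livers against the others. Its pattern over livers thus follows from that choice, and its gene was not assigned.

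Most reads of Slc25a47 came from a transcript of 1580 bases at chr12:108817021-108822741 in GRCm39. It held 94.9% of them, with group medians between 92.9% and 96.8%. At its annotated 5′ end, upstream of this transcript, the gene overlaps Slc25a29, on the opposite strand, by 230 bases. Slc25a29 had 248 reads over all livers against 199133 for Slc25a47, and since the sources used here do not say whether strand was used, reads in the overlap cannot be told apart. No other pair of carriers shared 150 bases at 95% identity. Slc25a39 overlaps Rundc3a and Slc25a25 overlaps Naif1 on the opposite strand, genes whose reads came to at most 1.51% of those of the carrier. Slc25a3, Slc25a10, Slc25a15, Slc25a22, Slc25a23 and Slc25a33 overlap less known antisense genes, and Slc25a5 has processed copies with 13 and 24 reads.

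The first question is whether the leucine variant moved the carriers. Without GKA, 1 of 35 carriers differed between LL and PP, against 0.0854% of all genes, by an adjusted p below 0.05 and a fold of at least 1.3 or at most 0.7. This was Slc25a47, which rose. Its CPM ran from 289 in the lowest PP liver through a median of 409 to 560 in the highest, and in LL from 414 through 686 to 794. All 10 LL livers were above the PP mean and 9 of 10 were above the highest PP liver, the exception being LL mouse 44, so that the groups overlapped by that liver. The log2 change was 0.72 (SE 0.13, 95% interval 0.46 to 0.99), or 1.65-fold, with an adjusted p of 0.048 in edgeR's quasi-likelihood test. By p-value it was rank 2 among the 10537 genes tested. No carrier had LL and PP livers without overlap, while 0.019% of all genes did (0.0287% with GKA).

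The call rested on a value close to the threshold. When single livers were left out it held in 4 of 19 fits, those without PP mouse 6 or without LL mouse 38, 42 or 44, while the log2 change stayed between 0.65 and 0.78 and the adjusted p ran from 0.00981 to 0.109. In the other 15 fits no carrier was called. With a clock component in the fit (the first principal component of 16 circadian clock genes), the log2 change was 0.48, with an adjusted p of 0.161. The median of this component was -0.64 in PP, 0.84 in PL and 0.34 in LL without GKA, and -1.02, 0.54 and 0.09 with GKA. Harvest time is not in the labels, and its part in the result was not tested.

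With GKA the same comparison had a like size and did not pass. PP livers ran from 185 through 448 to 598 CPM of Slc25a47 and LL livers from 467 through 711 to 920. All 10 LL livers were above the PP mean and 8 of 10 above the highest PP liver. Here the log2 change was 0.69 (SE 0.17), or 1.61-fold, with an adjusted p of 0.0891, and 0 of 34 carriers were called against 0.239% of all genes. In a fit of all 6 groups together, the adjusted p was 0.0142. The LL effect with GKA minus that without GKA was -0.03 on the log2 scale (95% interval -0.48 to 0.41), an interval wide enough to hold differences of a sizeable part of the effect in either direction.

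**Figure D2:**
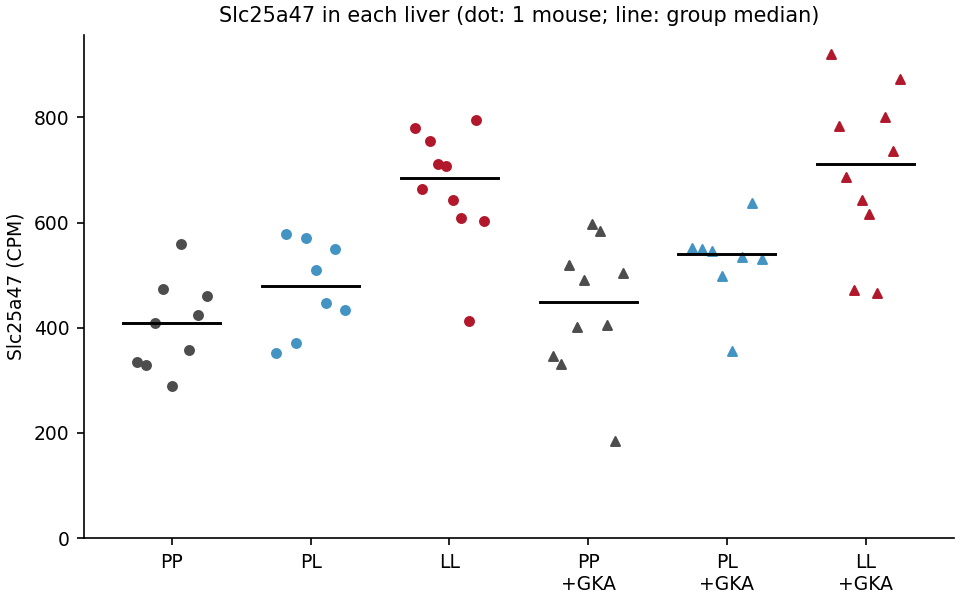
CPM of Slc25a47 in each of 55 livers by group, with 1 dot for each mouse and a line at the group median. The medians rise from 409 in PP through 479 in PL to 686 in LL without GKA, and from 448 through 540.3 to 711 with GKA, and LL mouse 44 is the low dot of its group.

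Heterozygotes lay between the homozygotes. PL livers ran from 351 through 479 to 577 CPM of Slc25a47 without GKA and from 356 through 540.3 to 637 with GKA. Against PP the log2 change was 0.24 (SE 0.13) without GKA and 0.27 (SE 0.17) with it, and neither passed (adjusted p 0.591 and 0.753). LL exceeded PL by 0.47 (SE 0.12, adjusted p 0.371) without GKA, with 9 of 10 LL livers above the highest PL liver, and by 0.41 (SE 0.14, adjusted p 0.416) with GKA, with 7 of 10. In these 4 comparisons 0 of 34 carriers were called. The share of all genes called was 0.151% for PL against PP and 0.00942% for LL against PL without GKA, and 0% for both with GKA. With the clock component in the fit, the PL change against PP was -0.09 without GKA and -0.06 with it, opposite in sign.

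Over all 55 livers, each 446L allele went with a log2 rise in Slc25a47 of 0.35 (SE 0.05, 95% interval 0.25 to 0.45), or 1.28-fold, with GKA as a covariate. The adjusted p was 2.12e-05, rank 2 of 11477 genes. Slc25a47 was the only carrier of 35 to pass an adjusted p below 0.05, against 3.53% of all genes. It passed in all 55 fits that left out a single liver, with an adjusted p of at most 5.23e-05, and with the clock component in the fit its slope was 0.29 (adjusted p 9.38e-04).

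Next in the order of p for allele dose were carriers that did not pass. Slc25a32, which brings folate and FAD into the matrix, had a slope of 0.16 per allele (SE 0.05, adjusted p 0.0514). Its CPM ran from 11.5 through 13.5 to 17.8 in PP and from 12.2 through 15.2 to 31.4 in LL without GKA. With GKA it ran from 9.61 through 12.1 to 15.5 in PP and from 11.1 through 14.7 to 21.4 in LL. The groups overlapped widely, and LL mouse 41 was far above the rest. Slc25a22 had a slope of 0.12 (SE 0.04, adjusted p 0.0591). Its CPM ran from 76.9 through 101 to 120 in PP and from 83.5 through 115 to 142 in LL without GKA. With GKA it ran from 86.4 through 98.1 to 131 in PP and from 85.9 through 133 to 153 in LL, where 9 of 10 LL livers were above the PP mean. That comparison had a log2 change of 0.35 (SE 0.10, adjusted p 0.187).

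At an unadjusted p below 0.05 there were 6 of 35 carriers for allele dose, 4 higher and 2 lower. This share of 17.1% was near the 15.5% of all genes. Beside the 3 above, the higher one was Slc25a46, an outer membrane protein, at 0.06 per allele (SE 0.03), and the lower ones were Slc25a21, a carrier of oxoadipate, and Slc25a44, a carrier of branched-chain amino acids, both at -0.10 (SE 0.04). These 3 are named after their values were seen. For the 4 carriers next to Slc25a47 by CPM per kb, the slope was 0.04 (SE 0.03) for Slc25a5 and 0.01 (SE 0.03) for Slc25a39. It was 0.01 (SE 0.02) for Slc25a3 and -0.02 (SE 0.03) for Slc25a1.

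**Figure D3:**
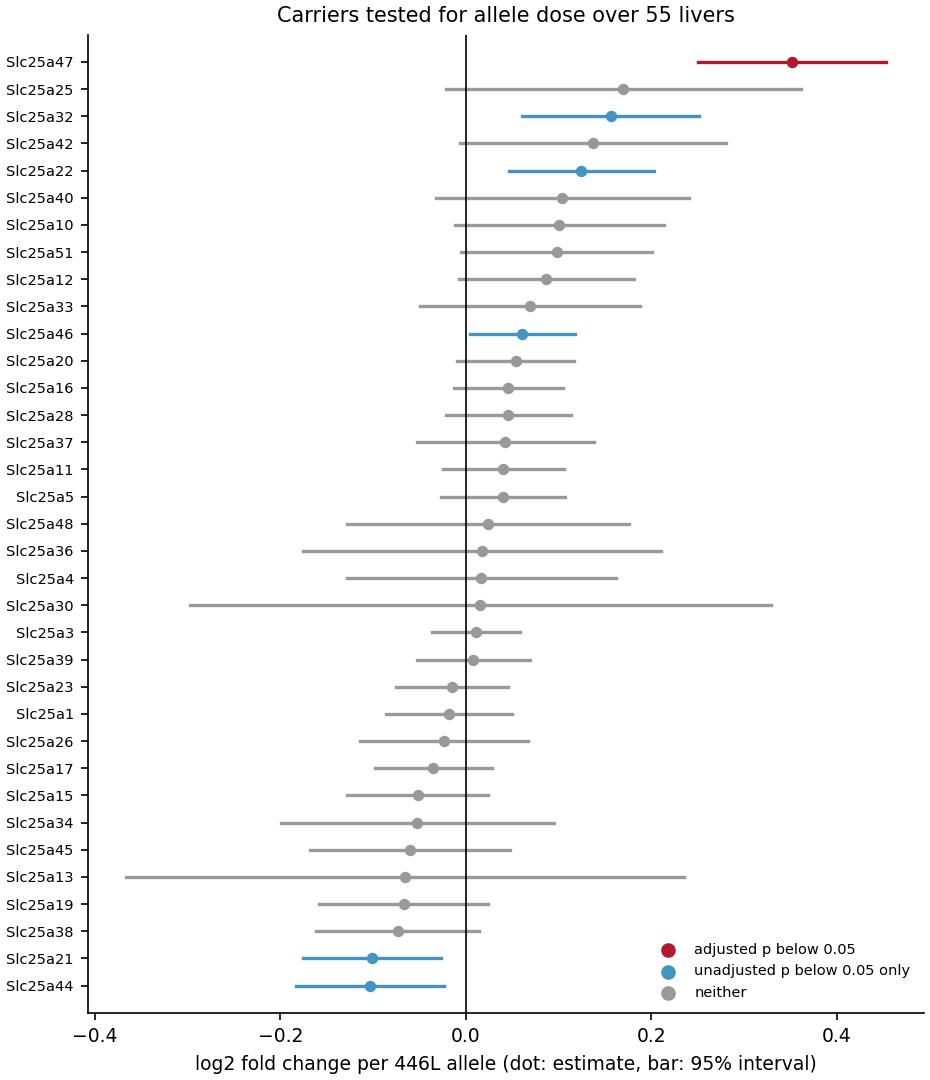
Log2 change per 446L allele for the 35 carriers tested, over 55 livers, with 95% intervals as bars. Slc25a47 is at 0.35, with an interval from 0.25 to 0.45, and Slc25a32 at 0.16 and Slc25a22 at 0.12 come next by p.

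Slc25a10 was the next carrier in the comparison of LL with PP without GKA. It exchanges malate or succinate for phosphate. Its CPM ran from 92.3 through 136 to 164 in PP, from 106 through 139 to 195 in PL and from 118 through 179 to 240 in LL. Of the LL livers, 9 of 10 were above the PP mean and 6 of 10 above the highest PP liver. The log2 change was 0.48 (SE 0.13) with an unadjusted p of 0.00187 and an adjusted p of 0.130 in edgeR. With GKA the values were 76.9 through 159 to 181 in PP and 69.2 through 145 to 194 in LL, for a change of -0.05 (SE 0.17). The difference between these effects was -0.52 (SE 0.23, unadjusted p 0.0265, adjusted p 0.867), so it did not pass.

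Slc25a33, a carrier of pyrimidine nucleotides, was lowest in PP without GKA. It ran from 3.15 through 5.94 to 8.70 CPM there, from 7.36 through 8.74 to 12.6 in PL and from 5.88 through 7.80 to 11.8 in LL. All 8 PL livers were above the PP mean, and the groups overlapped. PL differed from PP by 0.56 on the log2 scale (SE 0.15, unadjusted p 0.00159, adjusted p 0.151) and LL from PP by 0.41 (SE 0.16, adjusted p 0.296). With GKA, PP ran from 4.99 through 7.58 to 12.7 and LL from 4.39 through 7.02 to 9.43, for a change of -0.08 (SE 0.16).

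**Figure D4:**
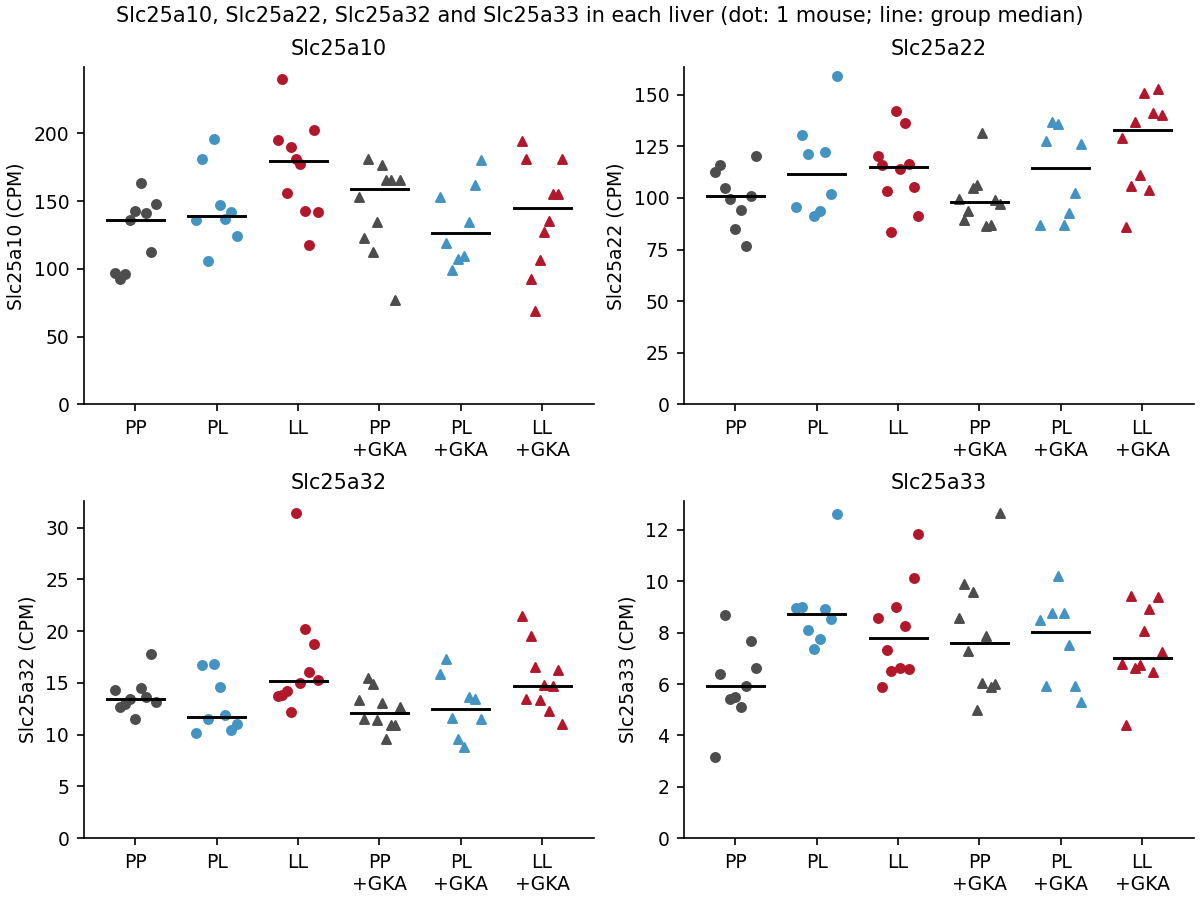
CPM of Slc25a10, Slc25a22, Slc25a32 and Slc25a33 in each of 55 livers by group, with 1 dot for each mouse and lines at group medians. Groups overlap in all 4 panels. In the panel of Slc25a10, LL without GKA has a median of 179 against 136 in PP, and in that of Slc25a33, PP without GKA has a median of 5.94 against 8.74 in PL.

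Read as a family, 26 of 35 carriers were higher in LL than in PP without GKA, against 52.7% of all genes, with a median log2 change of 0.09 against 0.01. With GKA 17 of 34 were higher, against 50.6%, with a median of -0.004 against 0.002. For allele dose 23 of 35 had a slope above 0, against 50.9% of all genes. At an unadjusted p below 0.05 there were 4 carriers without GKA, all higher (11.8% of all genes, 6.15% in that direction), and 5 with GKA, 4 higher and 1 lower (10.4%). For PL against PP the same count was 1 without GKA (10.1%) and 2 with it (8.19%), and for LL against PL it was 3 (4.58%) and 7 (8.6%). By kind of solute, all 8 nucleotide and phosphate carriers tested were above 0 in LL against PP without GKA, with a median of 0.08, as were all 4 carriers of iron or glutathione, with a median of 0.10. Among cofactor carriers 5 of 6 were above 0, of the carboxylate carriers 2 of 4, and of the carriers of amino acids and carnitine 3 of 7, with a median of -0.10. Without Slc25a13 the last count was 3 of 6, with a median of 0.02, so that the sign of this median rests on that gene. With GKA the counts were 3 of 7, 3 of 4, 4 of 6, 1 of 4 and 3 of 7, the last being 3 of 6 without Slc25a13. Over all carriers, leaving out Slc25a13 gave 26 of 34 without GKA, 17 of 33 with GKA and 23 of 34 for allele dose.

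The summed CPM of all carriers had medians of 2485 in PP (2344 to 2695), 2653 in PL and 2945 in LL (2744 to 3041) without GKA. With GKA the medians were 2532 in PP (2365 to 2821), 2676 in PL and 2847 in LL (2481 to 3212). PP and LL did not overlap in this sum without GKA and overlapped with it. As a share of all reads, without TMM scaling, they overlapped without GKA too, at 0.221% to 0.299% in PP and 0.216% to 0.35% in LL. Slc25a47 is the largest term of this sum, and the separation without GKA depends on it. PP mouse 4 had a sum of 2695, of which 474 was Slc25a47, and LL mouse 46 a sum of 2791, of which 602 was Slc25a47. Without that gene PP mouse 4 lies above LL mouse 46, so that the groups overlap. The sums include Slc25a13, whose counts may be incomplete, and LL mouse 46 is not among the 4 livers named for it.

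**Figure D5:**
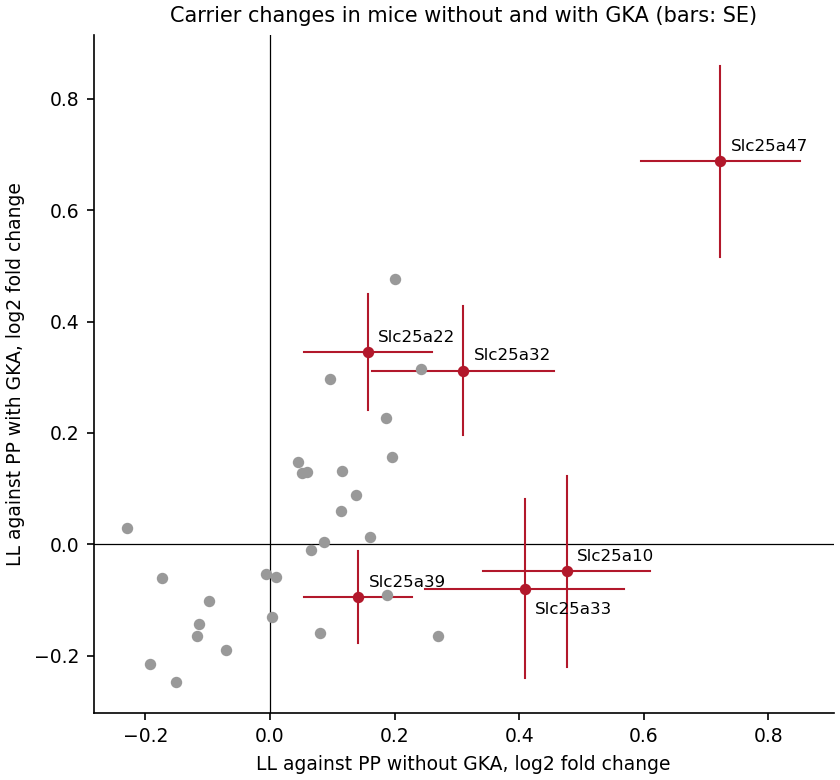
Log2 change of LL against PP with GKA (vertical axis) against that without GKA (horizontal axis) for the 34 carriers tested in both, with 1 dot for each carrier. The pairs of groups share no mice. Slc25a47 lies far to the upper right, at 0.72 and 0.69, while Slc25a10 and Slc25a33 lie to the right, at 0.48 and 0.41, near 0 on the vertical axis.

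The second question is what GKA did. It changed no carrier by the rule in any genotype, with 0 of 34 called in PP, PL and LL and 0 of 35 over all livers, and the share of all genes called was 0% each time. At an unadjusted p below 0.05 there was 1 carrier in PP (3.56% of all genes), 2 in PL (3.18%), 0 in LL (6.15%) and 2 over all livers (5.28%). For Slc25a47 the log2 change with GKA was 0.11 (SE 0.17) in PP, 0.14 (SE 0.13) in PL, 0.08 (SE 0.13) in LL and 0.10 over all livers (95% interval -0.07 to 0.27).

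In PL, Slc25a38, which takes glycine into the matrix for haem synthesis, ran from 6.96 through 9.90 to 11.0 CPM without GKA and from 6.24 through 7.73 to 9.02 with it. None of the 8 PL livers with GKA was above the mean of those without, though the ranges overlapped. Its log2 change was -0.35 (SE 0.10, unadjusted p 0.00326, adjusted p 0.999). Slc25a20, the carnitine-acylcarnitine carrier of fatty acid oxidation, ran from 62.4 through 68.3 to 72.5 CPM and with GKA from 51.7 through 59.0 to 69.0, a log2 change of -0.21 (SE 0.07, unadjusted p 0.00992, adjusted p 0.999). Over all livers the carriers with an unadjusted p below 0.05 were Slc25a38, at -0.19 (SE 0.07, adjusted p 0.769), and Slc25a23, at -0.11 (SE 0.05, adjusted p 0.914). Over all livers 17 of 35 carriers were above 0, against 50.7% of all genes.

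Whether GKA changed the LL effect was tested on the 4 homozygous groups. Of 35 carriers 0 passed, as did 0% of all genes, and 3 had an unadjusted p below 0.05 (5.75% of all genes). These were Slc25a10 at -0.52, Slc25a33 at -0.49 (SE 0.23) and Slc25a39 at -0.23 (SE 0.12), each with an adjusted p of 0.867. Of the 35, 12 had a value above 0, against 49.2% of all genes.

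Apart from the groups, some carriers varied with Slc25a47 from liver to liver. Over the 34 carriers compared with it, Pearson's r had a median of 0.05 and ran from -0.57 to 0.70. Other pairs of carriers were not compared. The group means of log2 CPM were subtracted, and each p comes from 100000 permutations of mice within groups. Over 55 livers, 8 of 34 carriers were correlated with Slc25a47 by Pearson's r at a permutation p adjusted over all genes below 0.05, against 14.2% of all genes. At an unadjusted permutation p below 0.05 there were 12 of 34 carriers, against 29.3% of all genes. Correlation with Slc25a47 was thus common among genes at large. Slc25a10 was the closest carrier, with r = 0.70 (adjusted permutation p 9.64e-04) and Spearman's rho = 0.69 (unadjusted permutation p 1e-05). Its r was 0.61 without the 2 livers farthest from the median of Slc25a47, and 0.45 to 0.86 within the 6 groups. For Slc25a39 r was 0.63 (adjusted permutation p 9.64e-04), rho 0.56 (unadjusted permutation p 3e-05), r without the 2 farthest livers 0.55, and r within groups 0.37 to 0.86. For Slc25a5 these were 0.60 (adjusted permutation p 9.64e-04), 0.46 (unadjusted permutation p 0.00114), 0.47, and 0.01 to 0.93. The value 9.64e-04 rests on the smallest p that these permutations can give, 1e-05.

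Among the remaining 5 carriers, Slc25a20, Slc25a1 and Slc25a11 had a positive r, of 0.56, 0.45 and 0.38. Slc25a23 and Slc25a30 had a negative r, of -0.57 and -0.55. The adjusted permutation p of r ran from 0.0027 to 0.0376, and the unadjusted permutation p of rho from 1.2e-04 to 0.0176. Adjusted over the 34 carriers compared, the permutation p of rho was 0.075 for Slc25a11, and 7 carriers passed by both r and rho. Without the 2 farthest livers r was 0.43, 0.37, 0.24, -0.51 and -0.42. Within groups r ran from -0.31 to 0.85 for Slc25a20, -0.05 to 0.78 for Slc25a1 and -0.12 to 0.77 for Slc25a11. It ran from -0.88 to 0.06 for Slc25a23 and from -0.92 to -0.16 for Slc25a30. Carriers of one library share its depth and composition, so these relations describe the livers and are not independent of each other.

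Several of these carriers also went with the clock component. Of 35 carriers, 9 were correlated with it at a permutation p adjusted over all genes below 0.05, against 20.1% of all genes, and 6 of the 9 positively. At an unadjusted permutation p below 0.05 there were 11 of 35, against 34.9% of all genes. Slc25a47 had r = 0.52 (adjusted permutation p 0.00716) and rho = 0.47 (unadjusted permutation p 0.00109), with r = 0.41 without the 2 farthest livers and between -0.03 and 0.87 within groups. Slc25a11, which exchanges oxoglutarate for malate, had r = 0.59 and Slc25a39 r = 0.58 (adjusted permutation p 5.8e-04 for each). Slc25a5, Slc25a10 and Slc25a3 had r of 0.48, 0.40 and 0.37, and Slc25a30, Slc25a25 and Slc25a23 had r of -0.51, -0.45 and -0.41. Slc25a10, Slc25a39 and Slc25a5 were thus related both to Slc25a47 and to the clock component, and the parts of these relations were not separated.

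The genes that carriers work with were counted for allele dose at an adjusted p below 0.05, beside the 3.53% of all genes called. Of the 9 genes tested that import carriers into the inner membrane, such as Tomm20 (0.08 per allele) and Timm29 (-0.06), none passed. The same held for 17 other mitochondrial transport genes, with Slc8b1 at 0.16 and Micu2 at 0.10, and for 3 tested family members under other symbols, with Ucp2 at 0.09 and Mtch2 at -0.02. Of 6 urea cycle genes, partners of Slc25a15, none passed, and Nags was at -0.12 (adjusted p 0.0713) and Cps1 at -0.08. Of 9 fatty acid oxidation genes, partners of Slc25a20, 1 rose, Cpt1a, at 0.16 per allele (SE 0.04, adjusted p 0.0129), which makes the acylcarnitine that Slc25a20 carries. Acadl was at 0.07. Of 7 genes of lipogenesis and the cytosolic steps linked to it, 2 fell. These were Acly at -0.49 (SE 0.12, adjusted p 0.00861) and Elovl6 at -0.42 (adjusted p 0.0254). Slc25a1, which exports citrate for lipogenesis, was at -0.02.

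Of 14 genes that respond to glucokinase or to the glucose sensor ChREBP, 5 rose with allele dose, led by Txnip at 0.65 and Klf10 at 0.49 per allele. Of 16 clock genes, 4 fell, led by Npas2 at -1.22 and Cry1 at -0.47. None of the 35 marker genes tested of hepatocytes, blood, macrophages, stellate cells, bile duct, adipocytes, pancreas and B cells passed, and no muscle marker had enough reads to be tested. In the blood list 4 of 5 genes were higher at an unadjusted p below 0.05, with Hba-a1 at 0.33 (adjusted p 0.105), and the part of blood in the carrier values was not tested.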

How the data were processed

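Liver RNA of 56 mice was sequenced by the authors, from RNA with an integrity number above 6. The authors quantified the reads with Salmon 1.4.0 on GENCODE M26 transcripts (GRCm39). Each deposited file gives, per transcript of 1 mouse, an estimated count (not normalised) and, per the file headers, TPM, which Salmon scales by effective length to the same total in each mouse. Strand setting and library kit are not given in the sources used here.

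Transcripts were named by unversioned identifier in GENCODE vM39. Of 139225 transcripts, 137570 (98.8%) matched, with between 99.76% and 99.86% of the reads of a mouse. For each of 52230 genes the estimated counts of its transcripts were added and rounded to whole numbers. The members and gene lists were chosen with earlier results of these data known. Genes were tested in edgeR 4.0.16 (R 4.3.3) with TMM, filterByExpr and the quasi-likelihood test, and p-values were Benjamini-Hochberg adjusted over all genes tested. Pairwise comparisons used the 2 groups alone and a call needed an adjusted p below 0.05 and a fold of at least 1.3 or at most 0.7. Allele dose, GKA over all livers and the interaction had no fold threshold. CPM is TMM-scaled, with a prior count of 2 on the log2 scale. Correlations used SciPy 1.17.1, and the p-values of r were adjusted over all genes tested for allele dose, where adjustment over the carriers alone was planned. Those of rho were adjusted over the carriers alone. TPM was used to rank levels only. The mice are separate animals. Mean fragment length was estimated from the median gap between length and effective length of long transcripts. It ran from 171 to 681 bases over the libraries.

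Carriers were named if they were Slc25a47, among the 10 with the highest level, called in a comparison, among the 3 with the smallest p of a comparison where that p was below 0.01, or among the 3 most correlated with Slc25a47. From each other gene list the 2 genes with the smallest p for allele dose were named. Alternatives were DESeq2 1.42.0, RLE size factors, no filter, protein-coding transcripts only, a length offset, the clock component as covariate, PP mouse 7 kept, all 6 groups in a fit, and leaving out each mouse. Sequences with at least 150 bases at 95% identity were found with BLAST 2.17.0. Scripts were tested on simulated data.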

Additional observations from a re-analysis of the deposited data

Results flagged for a closer look

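In 7 of 84 combinations of group and named carrier, a liver lay apart from its group by Dixon's criterion, which chance meets in about 1 in 20 groups. Slc25a47 was at 413.5 CPM in LL mouse 44, below the 602 to 794 of the other LL livers. Slc25a25 was at 376.7 CPM in PP mouse 19 with GKA, above the 77.6 to 166 of the others, and Slc25a22 was at 131.2 CPM in PP mouse 16 with GKA, above 86.4 to 106. Slc25a33 was at 12.6 CPM in PL mouse 28, above 7.36 to 9.00, and Slc25a38 was at 6.96 CPM in PL mouse 22, below 9.41 to 11.0. Slc25a32 was at 17.8 CPM in PP mouse 9, above 11.5 to 14.5, and at 31.4 CPM in LL mouse 41, above 12.2 to 20.2.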

How the results depend on the processing

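No paired analysis was possible because mouse numbers are not shared between groups. For LL against PP without GKA, 1 carrier was called. There were 2 with DESeq2 (Slc25a47, adjusted p 1.97e-04, and Slc25a10, adjusted p 0.0379), and 0 with RLE size factors, without the low-count filter, with protein-coding transcripts only and with the clock component, where the adjusted p of Slc25a47 was 0.0511, 0.0595, 0.0682 and 0.161. Without single mice the count ran from 0 to 1. DESeq2 called 1 carrier for PL against PP (Slc25a33, adjusted p 0.0489) and 1 for LL against PL (Slc25a47, adjusted p 0.0405) without GKA. For LL against PP with GKA, DESeq2 and the fit of 6 groups called 1 (Slc25a47, adjusted p 0.0132 and 0.0142), and the clock component gave 1, another carrier (Slc25a25, 0.88 on the log2 scale, adjusted p 0.0481). For allele dose DESeq2 called 3 in place of 1, adding Slc25a22 (adjusted p 0.0355) and Slc25a32 (adjusted p 0.0423), and without single mice the count ran from 1 to 3. Slc25a32 passed in 13 of 55 such fits and Slc25a22 in 6. The log2 change of Slc25a47 turned in sign with the clock component for the interaction (0.021), for PL against PP with GKA (-0.062) and without it (-0.091), and with the length offset for GKA in LL (-0.034). The cause was not tested. Carriers with few reads, such as Slc25a33, are limited by depth.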

Other observations

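PP mouse 7, left out of all comparisons, was above the range of the 9 other PP livers without GKA for 3 of the 35 carriers tested, below it for 12 and within it for 20. Each of the 9 others was outside the range of the remaining 8 for 4 to 12 carriers. Its Slc25a47 stood at 458 CPM, within the PP range.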
